A study of Homo sapiens with 6 samples.

Results

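H441, an established line of human lung adenocarcinoma cells, keeps features of the distal airway and alveolar epithelium. The transcriptome described here is that of H441 cells given a scrambled control siRNA, as read by the 3 control arrays among the 6 arrays of the series. The other 3 arrays carry siRNA against ETS2 and are not analysed here. Per the labels, control siRNA was delivered with a lipid reagent (Lipofectamine RNAiMAX), total RNA was isolated 48 h later, and each array holds the RNA of its own biological replicate, called replicate 1, 2 and 3. Every array therefore shares the cell line, the lipid reagent and a non-targeting siRNA. Untransfected cells were not analysed here, and a single line stands for lung adenocarcinoma. Genes were taken from array probes that carry exactly 1 gene symbol, with the probe of the highest mean over the 3 arrays standing for the gene. This gave 18417 genes, of which 979 belong to the 40 lists of lineage, driver, receptor, secretory and comparison genes described below.

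The epithelium of the distal lung is specified by the transcription factor NKX2-1 together with forkhead and GATA factors. Alveolar type II cells make and recycle surfactant, alveolar type I cells form the thin gas exchange surface, and club cells secrete secretoglobins and metabolise inhaled compounds. Lung adenocarcinomas often keep part of this programme, and they are commonly driven through receptor tyrosine kinases and the RAS to ERK cascade. The levels of genes in each of these systems ask which parts of the programme the line carries under control siRNA.

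Levels are RMA values on the log2 scale, so that 1 unit is a doubling of signal. Probes differ in affinity and gene length, and a higher value for 1 gene than for another does not show that its transcript is more abundant. Each gene was therefore set against background. Olfactory receptor genes, which are nearly silent outside the nose, had a median level of 5.16 over 341 genes, and the 95th percentile of their means, 6.69, served as the first floor. A stricter second floor of 9.09 came from 132 taste receptor, keratin-associated protein, late cornified envelope and beta-defensin genes. The gap between the floors came from keratin-associated protein genes, with a median of 7.06 and a 95th percentile of 9.21, and late cornified envelope genes, with 7.27 and 9.08. The 27 taste receptor genes had a 95th percentile of 7.44 and the 21 beta-defensin genes one of 6.95. A gene above the second floor on all 3 arrays was read above every reference family's floor but that of the keratin-associated proteins. A gene between the floors is less certain to be transcribed. Failing the second floor is no sign of silence either, because PPIA, the ubiquitous cyclophilin A, was read at 8.02, 7.91 and 7.94 on replicates 1, 2 and 3.

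Above the first floor on all 3 arrays stood 12626 of 18417 genes (68.6%), and above the second floor 6433 (34.9%). A further 6193 genes (33.6%) were above the first floor on every array but not above the second on every array, and are called between the floors here. Another 5278 (28.7%) were at or below the first floor on every array, called at background, and 513 (2.79%) fell on different sides of it on different arrays. Every count of list members below is read against these shares of 68.6% and 34.9%. A count near them does not set a list apart from all genes. The arrays had gene medians of 8.08, 8.10 and 8.09, values running from 3.21 to 14.51, and 12969, 12754 and 12921 genes above the first floor.

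**Figure D1:**
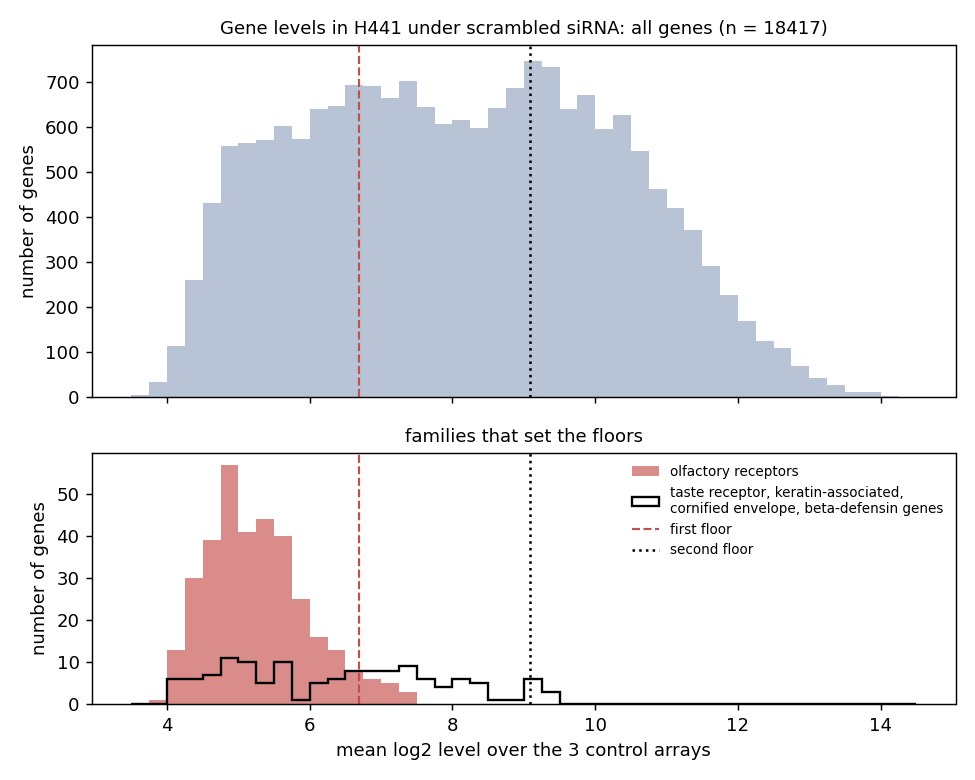
Number of genes (y axis) by mean log2 level over the 3 control arrays (x axis), for all 18417 genes in the upper panel and for the background families in the lower panel; the dashed line is the first floor at 6.69 and the dotted line the second floor at 9.09. The olfactory receptor genes sit to the left around 5.16, while the other silent families reach above the first floor.

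The markers of the line were present on every array. NKX2-1, the lineage factor of lung epithelium, was read at 11.01, 11.08 and 11.01 on replicates 1, 2 and 3. SFTPB, which encodes surfactant protein B, was read at 9.66, 9.66 and 9.80. The receptor tyrosine kinase MET stood at 13.32, 13.26 and 13.31. KRT7, a keratin of simple epithelium, was at 13.02, 13.05 and 13.07, and the epithelial adhesion molecule EPCAM at 12.86, 12.92 and 12.95. All 5 markers lay above both floors on all 3 arrays, and their SDs over the arrays were at most 0.08. In bulk RNA, fewer cells of a type and less RNA per cell cannot be told apart, so a low level of any gene below does not say how many cells carried it.

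Of the lung and foregut transcription factors, 23 of 26 measured members stood above the first floor and 6 above the second, with a median level of 7.89. Beside NKX2-1, the pioneer factor FOXA1 was read at 11.61, 11.65 and 11.64, and GATA6, which acts with NKX2-1 in lung epithelium, at 9.57, 9.60 and 9.61. These 3 factors cleared both floors with arrays within 0.07 of each other. FOXA2, the closest relative of FOXA1, was at 7.57, 7.53 and 7.60, between the floors. The airway factor SOX2 stood at 8.45 ± 0.05 (SD, n = 3, as for all errors of levels here), the distal progenitor factor SOX9 at 8.55 ± 0.03 and CEBPA, a factor of alveolar type II maturation, at 7.73 ± 0.02. All 3 lay between the floors. The epithelial factor KLF5 (10.87 ± 0.04), the forkhead factor FOXP1 (10.41 ± 0.02) and the ETS factor ETV5 (10.04 ± 0.05), which maintains alveolar type II cells, were the other members above both floors. CDX2, the intestinal homeobox factor, was at 7.57, 7.42 and 7.65 and HNF4G, a nuclear receptor of gut and kidney, at 7.48 ± 0.18. Both lay between the floors.

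Of 21 measured alveolar type II genes, 13 (61.9%) stood above the first floor and 8 (38.1%) above the second. The shares of all genes were 68.6% and 34.9%. On every array 7 members were at background. Among the 8 defining genes of the list, 4 were above both floors, SFTPB and the following 3. NAPSA, the aspartic protease napsin A that matures surfactant protein B, was read at 11.89, 11.84 and 11.92. SLC34A2, the sodium phosphate cotransporter of type II cells, was at 12.84, 12.79 and 12.85, and LPCAT1, which makes surfactant phosphatidylcholine, at 12.32, 12.35 and 12.30. All 3 cleared the second floor on every array. The surfactant proteins themselves differed: SFTPB was above both floors and SFTPD, a collectin, was between them at 7.79, 7.59 and 7.90. SFTPC, a surfactant gene of type II cells, was at 6.70, 6.55 and 6.57. SFTPC thus crossed the first floor on replicate 1 alone. The lamellar body transporter ABCA3 (8.68 ± 0.03) and LAMP3 (7.20, 7.56 and 7.34), a lamellar body membrane protein, lay between the floors. SLC39A8 (12.29 ± 0.03), a metal transporter, CTSH (9.28 ± 0.09), a cathepsin that processes surfactant proteins, and MFSD2A (9.24 ± 0.02), a lipid transporter, were further members above both floors.

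The promoters of 3 secretory genes are printed because these genes are known targets of NKX2-1 and were read at different levels here: NAPSA and SFTPB above both floors, SCGB3A2, a secretoglobin of club cells, at background. Each runs from 250 bases before the start of the gene to 50 bases after it, 5′ to 3′ on the strand of the gene, from RefSeq on GRCh38.p14. Capitals mark every match on the printed strand to CAAGTG, a form of the core element that NKX2-1 binds, searched on both strands, and to TATAAA, searched on the strand of the gene. SFTPB lies on the minus strand at chr2:85668692-85668991, NAPSA on the minus strand at chr19:50369253-50369552 and SCGB3A2 on the plus strand at chr5:147878461-147878760.
SFTPB: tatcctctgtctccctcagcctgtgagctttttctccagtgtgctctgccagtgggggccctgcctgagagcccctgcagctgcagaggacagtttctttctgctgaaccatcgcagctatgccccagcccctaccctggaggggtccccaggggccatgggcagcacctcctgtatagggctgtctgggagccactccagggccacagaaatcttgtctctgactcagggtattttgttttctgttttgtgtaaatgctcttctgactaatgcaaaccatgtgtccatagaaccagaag
NAPSA: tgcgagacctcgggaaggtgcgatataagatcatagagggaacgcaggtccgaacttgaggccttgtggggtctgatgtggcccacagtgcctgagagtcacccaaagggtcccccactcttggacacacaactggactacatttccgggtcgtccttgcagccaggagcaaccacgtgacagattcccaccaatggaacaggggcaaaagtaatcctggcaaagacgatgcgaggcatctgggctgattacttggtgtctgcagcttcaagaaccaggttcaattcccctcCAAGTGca
SCGB3A2: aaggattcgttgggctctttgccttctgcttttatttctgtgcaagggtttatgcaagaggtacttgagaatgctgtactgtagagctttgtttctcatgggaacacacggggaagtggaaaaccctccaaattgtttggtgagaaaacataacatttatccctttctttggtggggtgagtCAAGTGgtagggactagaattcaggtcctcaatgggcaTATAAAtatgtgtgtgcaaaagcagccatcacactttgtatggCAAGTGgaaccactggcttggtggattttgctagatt
CAAGTG was found 0 times in the window of SFTPB, 1 time in that of NAPSA and 2 times in that of SCGB3A2. TATAAA was found only in the window of SCGB3A2 among these 3, starting 30 bases before the start. The NAPSA match to CAAGTG and the later of those in SCGB3A2 lie after the start of the gene. Over 27305 promoters of 300 bases, 11.5% held CAAGTG on either strand and 7.71% held TATAAA. A match is a run of letters and says nothing of binding. Each window belongs to 1 annotated start of its gene, and sequence outside it, other starts included, was not searched. The 0 matches in the SFTPB window therefore do not show that the gene lacks the element.

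Of 15 measured alveolar type I genes, 12 (80%) stood above the first floor and 7 (46.7%) above the second. The shares of all genes were 68.6% and 34.9%, and the list median was 8.99. CAV1, the scaffold protein of caveolae, was read at 13.13, 13.15 and 13.08. The homeodomain protein HOPX was at 8.16, 8.22 and 8.10, AQP5, a water channel, at 7.32 ± 0.06, and AGER, the receptor for advanced glycation end products, at 7.59, 7.46 and 7.53. These 3 lay between the floors. PDPN, the podoplanin gene, at 6.35, 6.04 and 6.24, and CLIC5, a chloride channel family member, at 5.06 ± 0.04, were at background. Further members above both floors included GPRC5A (12.53 ± 0.04), ANXA3 (12.33 ± 0.02), EMP2 (12.29 ± 0.03) and VEGFA (12.27 ± 0.03), which are also made by many other epithelia.

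Most club cell products were dim. Of 22 measured club and airway secretory genes, 12 stood above the first floor and 3 above the second. SCGB1A1, the secretoglobin that defines club cells, was read at 6.61, 6.28 and 6.42, and SCGB3A2 at 5.74, 5.79 and 5.64. CYP2F1, a club cell cytochrome, was at 5.74, 6.06 and 6.25. All 3 were at background on every array. SCGB3A1 was between the floors at 7.61, 7.40 and 7.51, as were CYP4B1 (6.81 ± 0.06), a lung cytochrome, and MUC5B (7.20, 6.98 and 7.24), the gel-forming mucin of distal airways. The 3 members above both floors were CYP2B7P at 10.06, 10.08 and 10.23, the adhesion molecule CEACAM6 (11.74 ± 0.04) and WFDC2 (9.24 ± 0.01), a secreted antiprotease. CYP2B7P is a pseudogene closely related to CYP2B6, so signal at its probe may come from either; the probe of CYP2B6 itself read 7.10 ± 0.16. SLPI, the secretory leukocyte protease inhibitor, lay between the floors at 8.88 ± 0.09.

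Other airway programmes gave few members above the second floor. Of all genes, 68.6% stood above the first floor and 34.9% above the second. In the goblet cell list 10 of 13 stood above the first floor and 0 above the second, with SPDEF, the ETS factor of goblet cells, at 8.27, 8.31 and 8.27 and AGR2, a mucin-folding disulfide isomerase, at 8.95, 8.95 and 8.94. Ciliated genes counted 8 of 17 above the first floor and 0 above the second. The ciliogenesis factor FOXJ1 was at 7.12, 6.93 and 7.16, and the dynein intermediate chain DNAI1 at background with 6.08 ± 0.14. For basal and squamous genes the counts were 11 of 16 (68.8%) and 1 (6.25%). Of the 5 defining genes, 4 lay between the floors. These were KRT5, the basal keratin, at 6.92, 6.90 and 6.93, KRT14 at 7.98, KRT15 at 7.80 and NGFR at 7.68. The desmosomal cadherin DSG3 was at background with 5.44 ± 0.04. The 1 member above the second floor was SPRR1B, a cornified envelope precursor induced in squamous metaplasia, at 10.29, 10.32 and 10.23. Neuroendocrine genes counted 5 of 14 above the first floor and 0 above the second. The granule protein CHGA, at 5.69, 5.89 and 5.82, and the synaptic vesicle protein SYP, at 6.21 ± 0.04, were at background, while the neuroendocrine factor INSM1, at 8.38, 8.35 and 8.32, was between the floors.

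Most genes of epithelial structure were above both floors. Of 34 measured keratin and junction genes, 31 stood above the first floor and 29 above the second, and the list median was 11.02. CDH1, the epithelial cadherin, was read at 12.79, 12.83 and 12.82 and KRT18, a simple epithelial keratin, at 13.40, 13.40 and 13.38. KRT8 stood at 13.35 ± 0.04 and KRT19 at 13.12 ± 0.01. CDH3, the placental cadherin, stood at 12.57 ± 0.01, the tight junction genes TJP1 at 12.26 ± 0.05 and CLDN1 at 12.03 ± 0.09, and JUP, plakoglobin, at 11.99 ± 0.03. Mesenchymal genes were mixed, with 15 of 20 (75%) above the first floor and 5 (25%) above the second. The shares of all genes were 68.6% and 34.9%. Fibronectin, FN1, was read at 12.60, 12.61 and 12.57, SNAI2, a repressor of epithelial genes, at 10.72, 10.76 and 10.75, and CDH11, a mesenchymal cadherin, at 11.39, 11.33 and 11.39. These 3 genes cleared both floors on every array. VIM, the filament gene vimentin, was between the floors at 8.17, 8.32 and 8.20, as was ZEB1, a further repressor, at 8.01, 8.23 and 8.18. CDH2, the neural cadherin, was at background at 5.83, 5.77 and 5.78. Tenascin C, TNC, and the integrin gene ITGA5 were above both floors at 10.26 ± 0.06 and 10.46 ± 0.13.

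**Figure D2:**
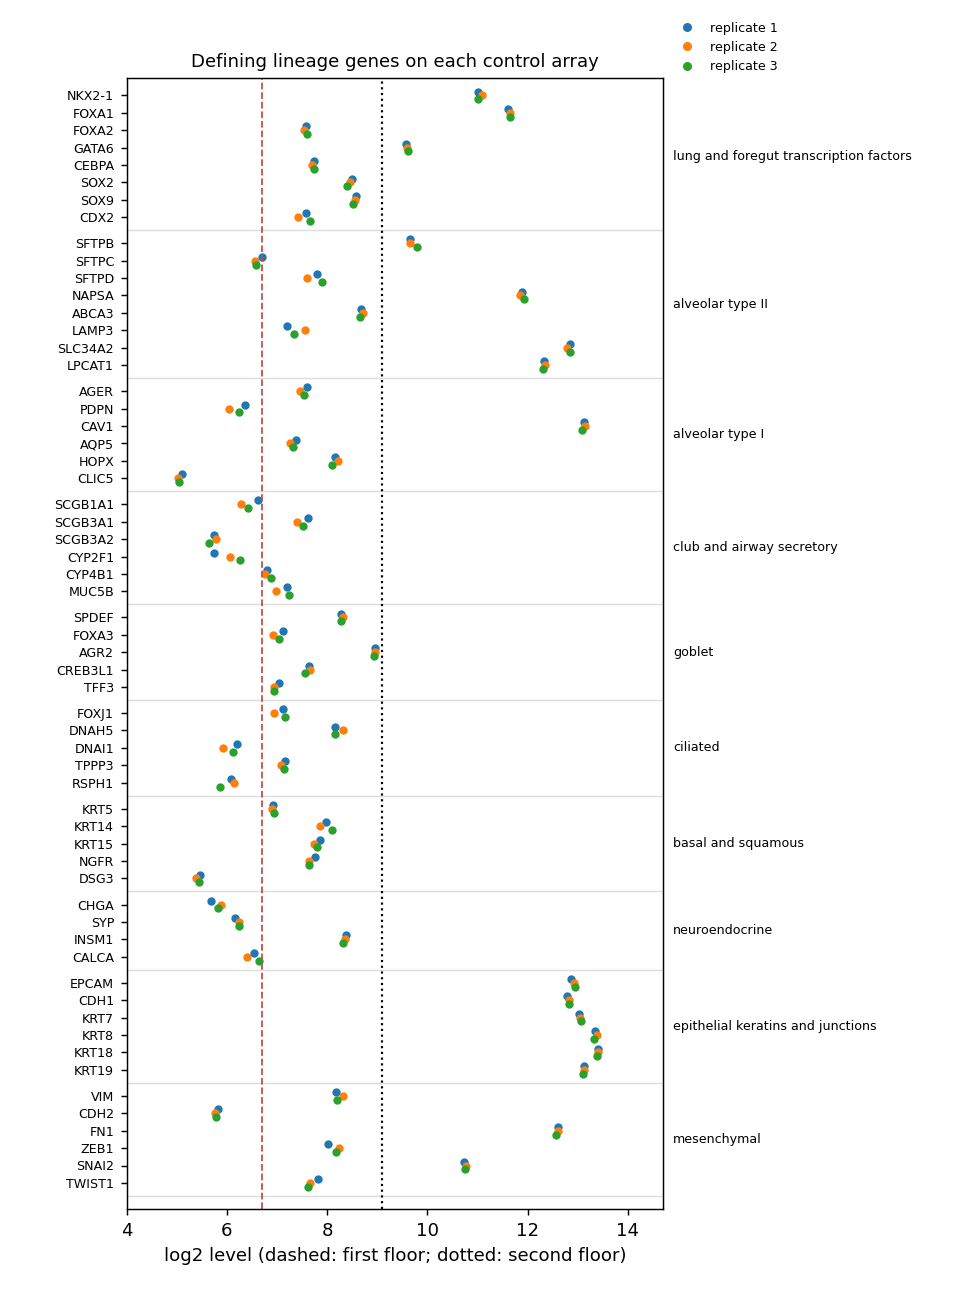
Log2 level (x axis) of the defining genes of 10 lineage lists (y axis) on each of the 3 control arrays, 1 coloured point per array, with the first floor at 6.69 dashed and the second at 9.09 dotted. Epithelial genes lie far to the right of both lines, while SCGB1A1, SCGB3A2, PDPN and CHGA lie to the left of the first.

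The RAS to ERK cascade passes growth factor signals from receptors to the nucleus. All 22 measured members stood above the first floor and 18 above the second. HRAS, a RAS GTPase, was read at 9.0, 8.94 and 9.0, just under the second floor, and MAP2K1, the kinase MEK1 that phosphorylates ERK, at 10.89, 10.96 and 10.96. The ERK1 gene MAPK3 stood at 11.39 ± 0.03 and PTPN11, a phosphatase that activates RAS, at 11.74 ± 0.04. Negative regulators were read as clearly, with SPRED2 at 11.99 ± 0.04 and the RAS GTPase-activating gene NF1 at 11.75 ± 0.04, although the dimmest of the 3 NF1 probes read 9.25. Some genes of the cascade were not analysed here.

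Oncogenes of lung adenocarcinoma counted 19 of 20 above the first floor and 17 above the second, with a median of 11.29. EGFR was read at 10.70, 10.77 and 10.73 and ERBB2, its relative, at 9.77, 9.81 and 9.72. MYC, the growth transcription factor, was at 11.52, 11.61 and 11.54. The cyclin gene CCND1 stood at 11.87 ± 0.03, its partner kinase CDK4 at 12.55 ± 0.03, MDM2, a ubiquitin ligase, at 11.25 ± 0.04 and CTNNB1, beta-catenin, at 12.63 ± 0.02. TERT, the telomerase subunit, lay between the floors at 8.0, 7.80 and 8.01. Of 24 measured tumour suppressor genes, 22 stood above the first floor and 14 above the second. CDKN2A, which encodes inhibitors of CDK4 and MDM2, was between the floors at 8.69, 8.73 and 8.72. STK11, the kinase LKB1, was at 9.07, 9.06 and 9.09 and did not clear the second floor on any array. KEAP1, the adaptor that degrades NRF2, stood at 10.03 ± 0.01, RB1 at 10.66 ± 0.01, the chromatin remodeller SMARCA4 at 10.49 ± 0.08 and SMAD4 at 11.07 ± 0.05. These levels say nothing of mutations, which an expression array does not read.

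NRF2, encoded by NFE2L2, drives the antioxidant and detoxifying genes. Of 25 measured genes of this list, 23 stood above the first floor and 17 above the second. NFE2L2 itself was at 11.33 ± 0.04. NQO1, a quinone reductase, was read at 12.98, 12.98 and 12.94, the thioredoxin reductase TXNRD1 at 12.45 ± 0.05, UGDH at 12.63 ± 0.05 and GCLM, of glutathione synthesis, at 9.41 ± 0.03. The aldo-keto reductases did not share these levels. AKR1C1 was between the floors at 7.41, 7.44 and 7.48, AKR1C3 likewise at 7.95, 7.95 and 8.19, and AKR1B10 was at background at 5.03, 5.16 and 5.14. The AKR1C genes are near-identical copies, so their probes may share signal.

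Proliferation genes were bright throughout. All 27 cell cycle genes stood above both floors on all 3 arrays, with a median level of 11.21 and a median SD of 0.0306. MKI67, the proliferation antigen, was read at 11.36, 11.41 and 11.38 and TOP2A, topoisomerase II alpha, at 12.28, 12.22 and 12.28. The helicase subunit MCM7 stood at 12.31 ± 0.02, the mitotic kinase PLK1 at 12.04 ± 0.02 and the mitotic factor FOXM1 at 11.95 ± 0.03.

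ETS factors share a DNA-binding domain, and several act in epithelium or downstream of ERK. Of 26 measured members 20 stood above the first floor and 14 above the second. ETS2, the gene targeted in the other arm of the study, was read at 9.79, 9.91 and 9.79 under control siRNA. Its relative ETS1 was at 11.56, 11.58 and 11.58 and the epithelial factor ELF3 at 11.25, 11.24 and 11.26. EHF, also epithelial, was at 9.99 on replicate 3 and 0.01 higher on the others. ETV4, an effector of receptor tyrosine kinases, stood at 9.5 ± 0.03 and ELK1, an ERK substrate, at 9.34 ± 0.08. ETV5 and the broadly expressed ELF1 (11.06 ± 0.02), ELF4 (9.75 ± 0.13) and GABPA (9.81 ± 0.07) were also above both floors, and SPDEF was between them.

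Receptor tyrosine kinases counted 33 of 53 above the first floor and 16 above the second, with a list median of 7.29. The receptors above both floors included MET, whose arrays differed by 0.06 at most, and MST1R, the receptor RON of the same family, at 10.01, 10.09 and 10.04. The ERBB family members EGFR, ERBB2 and ERBB3 cleared both floors, with ERBB3 at 10.02, 10.11 and 10.08. EPHA2, an ephrin receptor, was read at 11.39, 11.36 and 11.48. The collagen receptor DDR1 stood at 11.34 ± 0.02 over its brightest probe, with the dimmest of 3 at 11.23, RYK, a WNT receptor, at 11.42 ± 0.03 and the orphan receptor ROR1 at 10.85 ± 0.04. IGF1R, the receptor of insulin-like growth factors, was at 9.94, 10.01 and 9.91, but its other probe read 7.61. INSR, the insulin receptor, was between the floors at 7.33, 7.21 and 7.33. KDR, a VEGF receptor best known from endothelium, was above both floors at 9.75, 9.88 and 9.76. HGF, the ligand of MET, was at background at 5.01, 5.09 and 5.12, a gene singled out after its values were seen.

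Among cytokine and death receptors, 30 of 38 stood above the first floor and 21 above the second. The receptors of the IL6 family were read at several levels. Their shared subunit IL6ST was read at 11.61 on all 3 arrays and OSMR, the oncostatin M receptor, at 12.32, 12.29 and 12.35, whereas IL6R, the ligand-specific subunit for IL6, lay between the floors at 8.23 ± 0.01. The TWEAK receptor TNFRSF12A was at 12.70, 12.72 and 12.72, the TNF receptor TNFRSF1A at 11.24 ± 0.03, the TRAIL receptor TNFRSF10B at 10.69 ± 0.08 and FAS at 10.06 ± 0.04. The interferon receptor genes IFNAR1, at 9.98 ± 0.04, and IFNGR1, at 9.25 ± 0.03, were above both floors. IFNAR2 lay between them at 8.66, 8.75 and 8.52.

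Nuclear receptors counted 24 of 39 above the first floor and 12 above the second. NR3C1, the glucocorticoid receptor, was read at 10.92, 10.94 and 10.89, VDR, the vitamin D receptor, at 10.42, 10.49 and 10.47, and PPARG, a lipid-sensing receptor, at 10.70, 10.69 and 10.74. All 3 were above both floors. NR3C2, the mineralocorticoid receptor, was at 6.76, 6.80 and 6.67, so it passed the first floor on replicates 1 and 2 and not on replicate 3. The oestrogen receptor ESR1, at 6.62, 6.35 and 6.37, and the progesterone receptor PGR, at 4.92 ± 0.09, were at background. G protein-coupled receptors counted 27 of 42 above the first floor and 12 above the second. GPRC5A, a retinoic acid-induced receptor of lung epithelium, was at 12.54, 12.49 and 12.57 and the adhesion receptor ADGRF1 at 12.70, 12.70 and 12.75. The nucleotide receptor P2RY2 (10.48 ± 0.03) and the adenosine receptor ADORA2B (11.19 ± 0.06), which act in airway fluid secretion, were above both floors. So was the R-spondin receptor LGR4 (11.31 ± 0.03). F2R, a thrombin receptor, was at background at 5.30, 5.30 and 5.44.

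Integrins, the receptors for matrix, counted 14 of 25 above the first floor and 9 above the second. Among the subunits above both floors were several that pair into epithelial receptors for collagen, laminin, fibronectin and vitronectin. ITGA2 was read at 12.47, 12.44 and 12.46, ITGAV at 12.51 ± 0.03, ITGA3 at 11.88 ± 0.03 and their shared partner ITGB1 at 11.07 ± 0.06. ITGB4, the hemidesmosome subunit, was at 11.07, 11.14 and 11.06, and its only partner, ITGA6, was between the floors at 8.51 ± 0.12. ITGB6, which with ITGAV activates TGF-beta, stood at 10.02 ± 0.01. ITGB2, the leukocyte beta subunit, was above both floors at 10.01 ± 0.08, while ITGAM, 1 of its partners, lay between them at 7.03 ± 0.04.

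H441 cells are a common model of sodium absorption by airway epithelium, which runs through the channel ENaC at the apical side and the sodium pump at the basal side. Of 26 measured ion and water transport genes, 18 stood above the first floor and 6 above the second. The ENaC subunits were read at 11.56, 11.63 and 11.69 for SCNN1A, at 9.22, 9.32 and 9.20 for SCNN1B, and at 7.27, 7.37 and 7.14 for SCNN1G. The alpha and beta subunit genes cleared both floors and the gamma subunit gene only the first. NEDD4L, the ligase that removes ENaC from the membrane, stood at 11.16 ± 0.06 and SGK1, the kinase that opposes it, between the floors at 7.05, 7.16 and 7.01. The pump subunit ATP1B1 was at 11.77, 11.81 and 11.85 and the chloride cotransporter SLC12A2 at 10.10 ± 0.03. CFTR, the chloride channel mutated in cystic fibrosis, was at background at 4.62, 4.61 and 4.57. The water channel AQP4 was at 9.0, 9.13 and 8.93, above the second floor on replicate 2 alone.

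**Figure D3:**
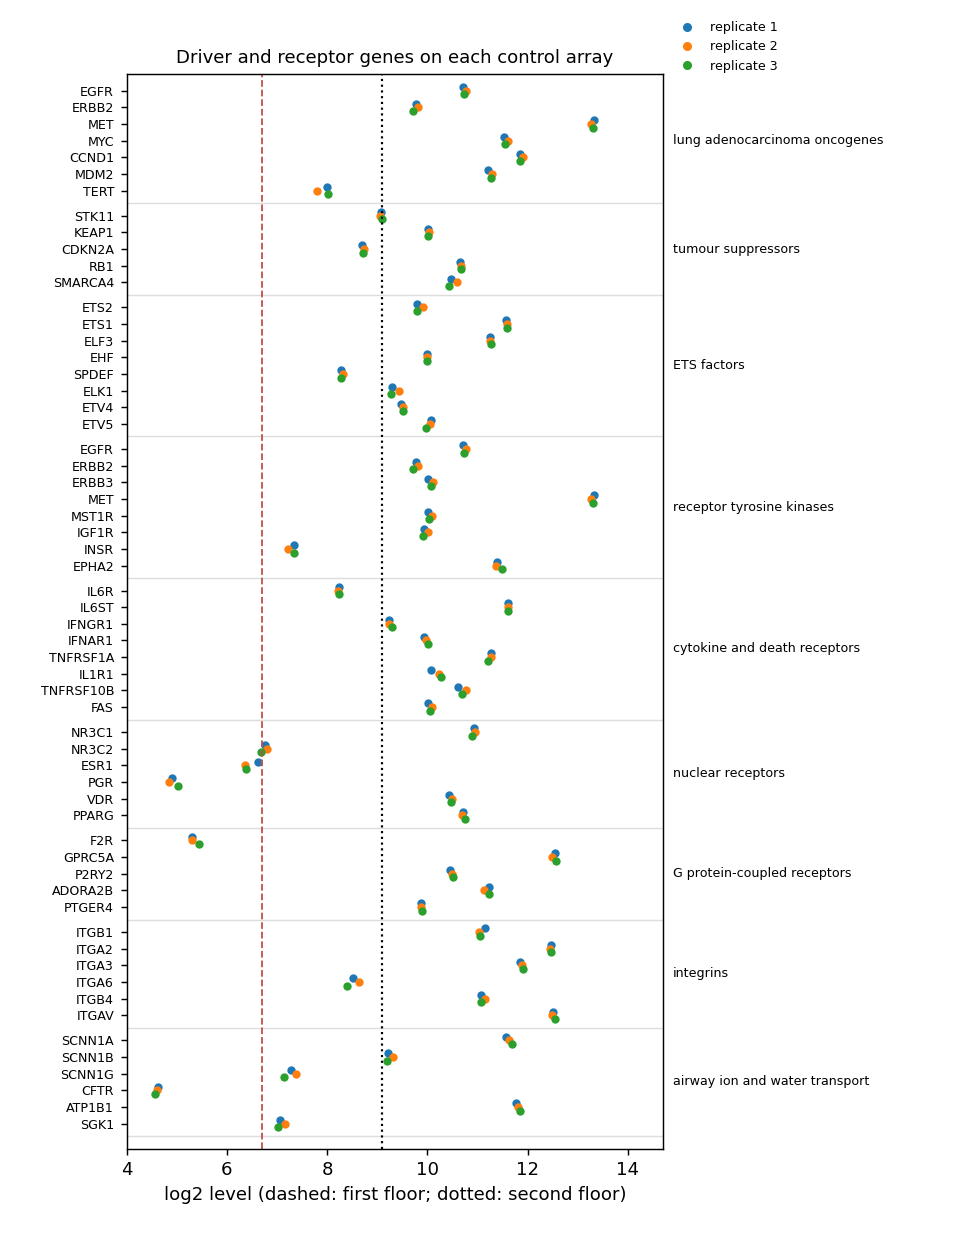
Log2 level (x axis) of defining driver and receptor genes (y axis) on each of the 3 control arrays, 1 coloured point per array, with the first floor at 6.69 dashed and the second at 9.09 dotted. MET lies far to the right at about 13.30, while CFTR, PGR and F2R lie to the left of the first floor.

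Mucins coat and protect epithelial surfaces. They counted 11 of 15 above the first floor and 4 above the second, and these 4 do not form gels. The transmembrane mucins MUC1, at 12.73, 12.71 and 12.74, MUC21, at 13.21, 13.20 and 13.22, and MUC4, at 10.77, 10.85 and 10.83, were above both floors with MUC20 at 9.38 ± 0.02. The 3 probes of MUC21 agreed, the dimmest reading 12.79. MUC16, the antigen CA125, was between the floors at 7.49, 7.32 and 7.43, as was the gel-forming MUC5B.

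Cytokines and chemokines counted 20 of 37 above the first floor and 5 above the second. The 5 were the neutrophil attractant CXCL8 at 9.56, 9.67 and 9.49, the mucosal chemokine CXCL17 at 10.41, 10.28 and 10.39, the IL6 family ligand LIF at 10.02, 10.05 and 10.12, and the membrane-anchored chemokines CX3CL1 (9.74 ± 0.06) and CXCL16 (9.34 ± 0.08). IL6 was between the floors at 8.12, 8.24 and 8.32, as were CXCL1 (8.98 ± 0.05) and CCL20 (6.90, 7.10 and 6.93), a chemokine for dendritic cells. CCL2, the monocyte attractant, was at background at 6.44 ± 0.08.

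Growth factors counted 32 of 47 above the first floor and 18 above the second. Ligands of EGFR were read at several levels. Above both floors were EREG, epiregulin, at 12.44, 12.41 and 12.48, HBEGF at 10.80 ± 0.07 and TGFA at 10.69 ± 0.04. Of the other ligands, named after their values were seen, betacellulin, BTC, lay between the floors at 7.92 ± 0.04, EGF on different sides of the first floor at 6.58 ± 0.15 and EPGN at background at 4.27 ± 0.15. VEGFA, which promotes vessel growth, was at 12.26, 12.30 and 12.25 and the WNT inhibitor DKK1 at 11.53, 11.54 and 11.66. The matricellular gene CCN1 stood at 11.75 ± 0.10, midkine, MDK, at 11.45 ± 0.05 and TGFB1 at 10.42 ± 0.04. PDGFB lay between the floors at 7.76 ± 0.01.

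Proteases and their inhibitors counted 33 of 47 above the first floor and 21 above the second. The plasminogen activators were above both floors, PLAU at 12.74, 12.75 and 12.71 and PLAT at 11.68, 11.60 and 11.66. MMP9, a gelatinase, was also above both, with a wider spread of 11.26, 11.38 and 11.01, while MMP7, matrilysin, was at background at 5.40, 5.47 and 5.24. Inhibitors included SERPINA1, the elastase inhibitor alpha-1-antitrypsin, at 11.36, 11.37 and 11.25, SERPINB1 at 12.06 ± 0.02, SPINT1 at 11.90 ± 0.05 and TIMP1 at 11.99, 12.09 and 11.92. Matrix and basement membrane genes counted 27 of 41 above the first floor and 13 above the second. LAMB3, a chain of the epithelial laminin, was at 12.27, 12.30 and 12.24, TGFBI at 12.86 on all 3 arrays, EFEMP1, a fibulin, at 12.49, 12.51 and 12.49 and THBS1, thrombospondin, at 12.98 ± 0.03. COL4A1, the basement membrane collagen, was at 6.79, 6.56 and 6.66 and passed the first floor on replicate 1 alone.

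Complement, acute phase and innate defence genes were the dimmest of the secretory lists, with 10 of 34 above the first floor, 3 above the second and a median of 5.92. The 3 were the membrane regulators that protect cells from complement, CD55 at 12.33, 12.29 and 12.30, CD46 at 12.09 ± 0.02 and CD59 at 11.89 ± 0.04. C3, the central complement component, was between the floors at 7.40, 7.40 and 7.31, as was lipocalin 2, LCN2, at 8.75 ± 0.10. The acute phase gene SAA1 was at background at 4.40, 4.17 and 4.37, as were the immunoglobulin transporter PIGR (6.07 ± 0.08) and lactoferrin, LTF (6.62 ± 0.06).

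Antigen presentation and checkpoint genes counted 16 of 21 above the first floor and 10 above the second. B2M, the light chain of class I molecules, was read at 11.40, 11.31 and 11.42, tapasin, TAPBP, at 12.62 ± 0.03 over its brightest probe, and CD274, the ligand PD-L1, at 11.09, 11.10 and 11.16. The signal CD47, which inhibits phagocytosis, stood at 11.85 ± 0.02. Transfected RNA can trigger interferon signalling, which makes this list relevant to a siRNA control. Interferon-stimulated genes counted 25 of 35 (71.4%) above the first floor and 9 (25.7%) above the second. The shares of all genes were 68.6% and 34.9%. The strongly inducible IFIT1 was at 6.61, 6.81 and 6.68, above the first floor on replicate 2 alone, MX1 was at background at 6.55, 6.42 and 6.33, and ISG15 was between the floors at 8.31, 8.27 and 8.35. DTX3L (10.86 ± 0.05), SAMD9 (10.31 ± 0.03), IFI6 (10.31 ± 0.02) and OAS3 (10.20 ± 0.07) were above both. With no untransfected cells analysed here, whether transfection moved any of these levels was not tested.

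**Figure D4:**
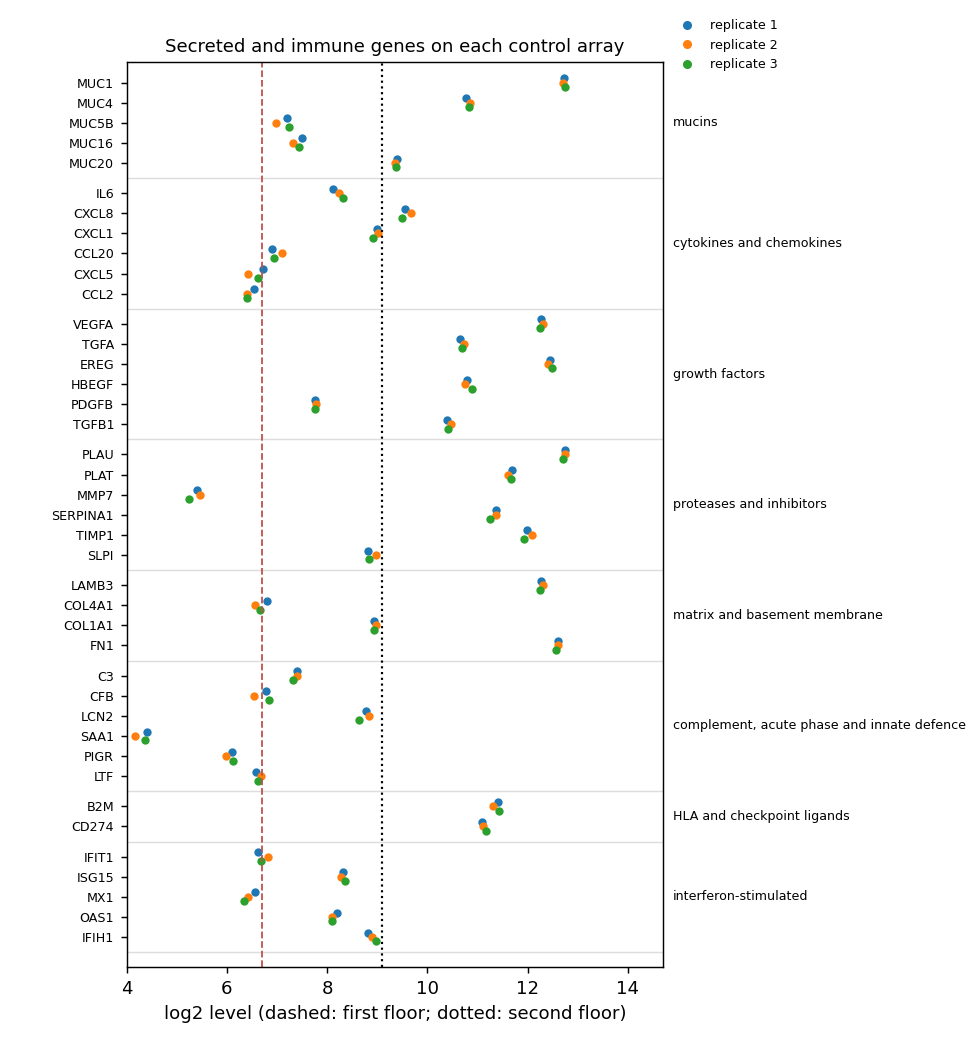
Log2 level (x axis) of defining secreted and immune genes (y axis) on each of the 3 control arrays, 1 coloured point per array, with the first floor at 6.69 dashed and the second at 9.09 dotted. MUC1 and PLAU lie at about 12.73, while SAA1 and MMP7 lie to the left of the first floor.

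Of the marker lists of leukocytes, fibroblasts and endothelium, only CD68 and KDR stood above the second floor on all 3 arrays. In the leukocyte list 6 of 18 stood above the first floor and 1 above the second. Of the 5 defining leukocyte genes, 3 stood above the first floor and 1 above the second. PTPRC, the pan-leukocyte antigen CD45, was at background at 4.72, 4.89 and 4.61, as was the T cell gene CD3E at 5.72 ± 0.03. The 1 bright member, CD68 at 11.29, 11.35 and 11.23, encodes a lysosomal protein that is not restricted to macrophages. Fibroblast genes counted 5 of 14 and 0, and of their 6 defining genes 4 stood above the first floor. Decorin, DCN, at 4.36 ± 0.10 and PDGFRA at 5.58 ± 0.07 were at background. LUM, lumican, at 8.95, 9.10 and 9.04 and COL1A1 at 8.93, 8.98 and 8.94 were just under or at the second floor. Endothelial genes counted 8 of 17 and 1. PECAM1, CDH5 and VWF, which define endothelium, were at background at 5.71 ± 0.03, 6.37 ± 0.09 and 6.10 ± 0.01, and the 1 gene above both floors was KDR.

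Housekeeping and ribosomal genes gave the upper end of the scale. All 15 housekeeping genes stood above the first floor and 14 above the second, PPIA being the exception, and all 29 measured ribosomal protein genes stood above the first floor and 27 above the second. Leaving out ribosomal protein, histone, small RNA and uncharacterised symbols, the 20 brightest genes included GAPDH at 14.23 ± 0.02 and ACTG1 at 13.91 ± 0.03. Among them were also the chaperone HSPA8 at 13.91 ± 0.03 and the metallothionein MT2A at 13.90 ± 0.04. The glycolytic genes ENO1, at 13.86 ± 0.03, and LDHA, at 13.79 ± 0.04, were among them too. ACTB read 13.60 on all 3 arrays. For some genes the probes differed widely: the brightest and the dimmest probe read 13.71 and 7.14 for PLCG2 and 14.11 and 7.45 for PTMA. Such a level belongs to the probe that was read. Among the 769 genes with several probes, 509 had all of them with a mean above the first floor, 109 had probes on both sides and 151 had none above it.

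The 3 arrays differed little. The median SD over all genes was 0.0603 and its 95th percentile 0.162, and the median gene differed 1.08-fold between its highest and its lowest array. The correlation across genes was 0.99821 between replicates 1 and 2, 0.99893 between 1 and 3 and 0.9984 between 2 and 3, where genes are not independent replicates. Differences of at least 0.5 log2 between replicates were seen in 41 genes for 1 and 2, in 17 for 1 and 3 and in 39 for 2 and 3. The spread was widest just above the first floor and fell at higher levels. Its median was 0.0757 for genes at or below the first floor, 0.0850 between 6.69 and 8, 0.0529 between 9.09 and 10 and 0.0252 above 12. Among the lists, the median SD was 0.108 for ciliated genes and 0.0900 for club cell genes, and 0.0306 for the cell cycle.

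Replicate 2 stood slightly apart, and it carried 43.9% of the squared deviation from the gene means, against 30.4% for replicate 1 and 25.7% for replicate 3. Its median deviation was -0.04 for genes between 6.69 and 8 and 0.0367 for genes between 9.09 and 10. It was the highest array in 38.9% of all genes and the lowest in 33.6%, but in 62.7% and 12.8% of the genes between 9.09 and 10. Replicate 1 was the highest array in 26.6% of all genes and replicate 3 in 28.3%, and they were the lowest in 35.3% and 24.9%. In the RNA interference machinery, which loads and acts on siRNA, all 13 measured genes stood above the first floor and 11 above the second. Of these 13, 12 were highest on replicate 2 and 11 lowest on replicate 1, where 35.3% of all genes and 50.2% of those between 9.09 and 10 were lowest. The slicer AGO2 was read at 10.70, 10.78 and 10.74, DICER1 at 11.22, 11.39 and 11.30 and AGO4 at 7.99, 8.23 and 8.18. After quantile normalisation of the 3 arrays, the counts were 11 and 9. Tumour suppressor genes were highest on replicate 2 in 17 of 24, or 12 after quantile normalisation and 22 with arrays centred on their median. RAS to ERK genes were highest there in 15 of 22, or 13 and 18. Without rescaling, 62.7% of all genes between 9.09 and 10 and 58.9% of those between 10 and 11 were highest on replicate 2. Of all 18417 genes, 7123 were highest there after quantile normalisation and 10056 with arrays centred on their median. Shares by level were not computed after rescaling. Replicate 2 was the lowest array in 11 of 17 ciliated and 10 of 17 endothelial genes, or 9 and 8 after quantile normalisation. Of all genes, 47.7% of those at or below 6.69 and 53.3% of those between 6.69 and 8 were lowest there. The same lean with level was seen over all genes, and its part in these counts was not tested.

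**Figure D5:**
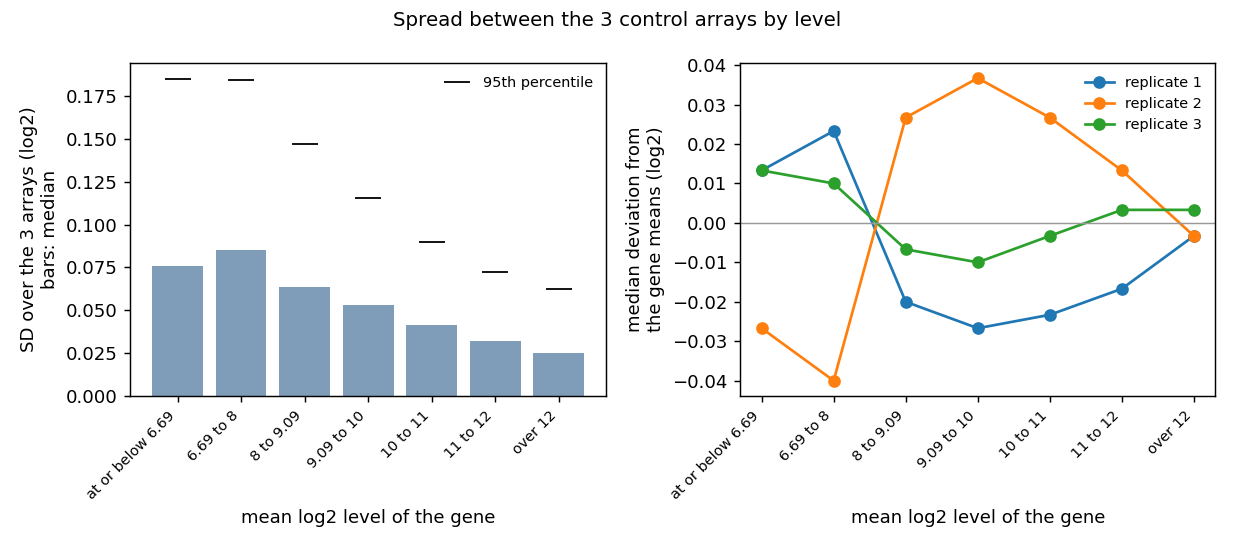
Left, median SD over the 3 control arrays on the log2 scale (bars) with the 95th percentile (ticks) for genes grouped by mean log2 level; right, median deviation of each array from the gene means in the same groups. The median SD is 0.0850 between 6.69 and 8 and 0.0252 above 12. Replicate 2 lies at -0.0267 at or below 6.69, -0.04 between 6.69 and 8, 0.0367 between 9.09 and 10 and -0.0033 above 12.

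Few genes varied strongly. A range of at least 0.5 log2 between arrays was seen in 83 of 18417 genes (0.451%), of which 13 stood above the first floor on all 3 arrays. With small RNA, uncharacterised, ribosomal protein and histone symbols left out, the 20 widest genes above the first floor had ranges from 0.46 to 0.60, and 14 of them had means under 8. Replicate 2 was the lowest array in 12 and the highest in 8. The placental and germ cell alkaline phosphatases stood out among them for their level. ALPP was read at 11.20, 10.78 and 11.31 and ALPG at 10.79, 10.40 and 10.93, both above both floors and both lowest on replicate 2. The 2 genes are close copies, their probes may share signal, and the dimmest ALPP probe read 8.66. PTX3, a soluble pattern recognition protein, was at 6.79, 7.35 and 6.95, ZNF594, a zinc finger gene, at 7.22, 7.82 and 7.66, EPHB6, an ephrin receptor without kinase activity, at 7.11, 6.85 and 7.38, and CYP24A1, the vitamin D hydroxylase, at 7.47, 7.87 and 7.41. These 4 genes had means under 8, the range of levels with the widest spread. Among mesenchymal genes, CD44, the hyaluronan receptor, was at 9.13, 9.40 and 9.06, and S100A4, a calcium-binding gene of motile cells, at 8.49, 8.09 and 8.46.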

How the data were processed

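Total RNA from the 3 control transfections was hybridised as biotin-labelled cRNA to an Affymetrix human gene array. The authors deposited log2 values of each probe set, called a probe here, rounded to 2 decimals, and their processing notes name RMA, a method of background correction, normalisation between arrays and probe set summary. RMA brings arrays to a common distribution and compresses differences at low signal. Not given in the sources used here are its settings and version and the genome build. Scanner intensities were not analysed here.

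Of 33297 probes, 19460 carry 1 gene symbol in the platform annotation. 19429 of these were matched by gene identifier to RefSeq (GRCh38.p14), and 0 symbols changed. A gene counts as above a floor when all 3 arrays exceed it. Levels are means with SDs over 3 arrays (pandas 2.3.3, numpy 2.4.6, Python 3.11.15). With a single group nothing was tested and no p-value is given. The number of arrays limits the precision, and their spread is that between transfections of 1 line.

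The 40 lists hold 1089 genes, of which 979 were measured. Genes were named from a pool that held the defining genes of each list. It also held, per list, up to 4 further members with the highest mean and 2 with the widest range above the first floor. Leaving out ribosomal protein, mitochondrial, histone, small RNA and uncharacterised symbols, the 20 brightest genes and the 20 widest above the first floor completed it. Not every gene of the pool is named, defining genes included. Any gene from outside the pool is marked as singled out after its values were seen. The members and lists were chosen with earlier results of these data known. The calculation was checked on simulated data with the same SD at every level. That check does not show whether a floor separates transcribed from silent genes. Promoters were given for 77.3% of genes, too few for a check of base composition over genes, which was left out. Alternatives were 3 other floors, a mean in place of all arrays, 2 other choices of probe, 2 rescalings, leaving out each array and, for the spread, genes above the first floor alone.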

Additional observations from a re-analysis of the deposited data

Results flagged for a closer look

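Signal was also seen in probes that the levels above do not use. Of 1754 probes with several gene symbols, 1182 (67.4%) stood above the first floor on all 3 control arrays and 627 above the second, with a median level of 7.93. Of 12083 probes unnamed here, 4704 (38.9%) stood above the first floor and 2096 above the second, with a median of 6.09 and a highest level of 14.48. These probes were not assigned to genes. With 3 arrays, no single array was tested as lying apart from the others.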

How the results depend on the processing

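No paired analysis was possible because a single group was described and no test was made. The second floor changed counts most: 6433 genes in place of 12626, lung factors 6, type II 8, type I 7, club 3, goblet 0, ciliated 0, basal 1, neuroendocrine 0, mesenchymal 5, liver and gut 0, HOX 0, tumour suppressors 14, receptor tyrosine kinases 16, nuclear receptors 12, G protein-coupled receptors 12, integrins 9, ion transport 6, mucins 4, cytokines 5, growth factors 18, proteases 21, matrix 13, complement 3, cytochromes 7, antigen presentation 10, interferon-stimulated 9, leukocyte 1, fibroblast 0, endothelial 1 and cancer-testis 1. With the first floor at the 99th percentile of olfactory receptors (7.25), HOX genes counted 4, cancer-testis 1, ciliated 3, club 7, fibroblast 3, goblet 4, leukocyte 1, liver and gut 4, mucins 7 and neuroendocrine 3, and at the 90th percentile (6.29) HOX genes counted 13. A higher or lower floor changes these counts by its construction.

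The other 399 of 440 list counts and 10 of 11 counts over all genes stayed within 1.5 times. Rescaling, another probe choice and leaving out an array moved no list count by more. The median SD over all genes was 0.0603. With an array left out it ran from 0.0424 without replicate 2 to 0.0566 without replicate 3, and with arrays centred on their median it was 0.0666. Of 328 spread values 23 moved, 14 of them without replicate 2. An SD over 2 arrays has a lower median than an SD over 3 by its construction. Its part in the lower medians and in these moves was not tested. Of 1743 levels 14 moved by more than their SD, 11 under the mean over a gene's probes.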

Other observations

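Other programmes of the line gave few bright members. Of 27 measured HOX genes, which pattern the body axis, 8 stood above the first floor and 0 above the second, with a median of 6.34. HOXD1 was read at 8.85, 8.64 and 8.81 and HOXD4 at 8.12 ± 0.05 (SD, n = 3), while HOXB5 (5.38 ± 0.06), HOXC10 (5.76 ± 0.13) and HOXD10 (5.51 ± 0.07) were at background. Liver and gut genes counted 7 of 19 and 0. Albumin, ALB, at 4.77 ± 0.07 and alpha-fetoprotein, AFP, at 4.62 ± 0.01 were at background, while the apolipoprotein APOA1 was between the floors at 7.79 ± 0.07. Cancer-testis and germ cell genes counted 2 of 18 and 1. The 1 gene above both floors was TDRD1, a tudor-domain gene of the germ line piRNA pathway, at 10.63, 10.69 and 10.66, while its pathway partner PIWIL1 was at background at 5.76 ± 0.10. MAGEA1 was the other gene above the first floor, at 6.95 ± 0.10.

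Cytochrome P450 and aldehyde metabolism genes counted 16 of 26 above the first floor and 7 above the second. CYP1B1, a target of the aryl hydrocarbon receptor, was read at 11.14, 11.20 and 11.15, whereas CYP1A1, another target, was at background at 5.79 ± 0.07. The glutathione transferase GSTP1 stood at 12.83 ± 0.01, the sterol demethylase CYP51A1 at 11.31 ± 0.02 and ALDH2 at 11.31 ± 0.05. ALDH1A3, which makes retinoic acid, stood at 10.64 ± 0.06, with its dimmer probe at 7.79. Among genes chosen after their values were seen, AKR1C2 had an SD of 0.42, with arrays at 7.01, 6.17 and 6.63, and lay on different sides of the first floor. CXCL10, a chemokine induced by interferon, had an SD of 0.33 at a mean of 6.04, at background.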
